A study of Mus musculus with 14 samples.

Results

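The annexins are a family of proteins that bind phospholipid membranes when calcium rises. Their signals were read on 14 mouse oligonucleotide arrays of corneal stroma and of cells cultured from it. The set comprises the 9 genes Anxa1 to Anxa8 and Anxa11, taken by gene symbol and selected on their measured signals over the 5 groups, so their group differences are given as descriptions without p-values. Of the 9 genes, 8 had at least 1 probe set of their own, with 11 such probe sets among 12422 on the array. Anxa11 was represented only by a probe set that it shared with the predicted genes Gm2260 and Gm2274. All 8 genes with their own probe set were among the 7429 genes kept for testing, each by its brightest probe set.

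Myofibroblast cultures (3 arrays) were corneal stromal cells of CD-1 mice aged 7 to 8 weeks, grown in DMEM with 10% fetal bovine serum and 10 ng/ml TGF-beta 1, the growth factor that turns fibroblasts contractile. Fibroblast cultures (3 arrays) were the same kind of primary cells with 10% fetal bovine serum and no added TGF-beta 1. Keratocyte cultures (3 arrays) were such cells in DMEM with 1% platelet-poor horse serum. Adult stroma (3 arrays) was dissected corneal stroma of CD-1 mice aged 7 to 8 weeks, and P10 stroma (2 arrays) was stroma dissected at postnatal day 10. The labels name no allele or transgene in any group. The labels do not say whether arrays of a group came from separate animals or cultures, so the p-values below measure only the spread between these samples, which may be technical.

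An annexin is built from a conserved core that docks on acidic phospholipids through calcium ions and from a variable N-terminal tail that recruits partners, many of them small calcium-binding S100 proteins. Annexins gather at torn plasma membrane and help to seal it, and they also act in exocytosis, endosome traffic and the anchoring of actin to membranes. Some reach the cell surface, where Anxa1 signals through formyl peptide receptors to limit inflammation and Anxa2 assembles plasminogen with its activators. In the cornea, annexins are known from the epithelium and from the closure of wounds in it.

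Promoters from the RefSeq table (mouse GRCm38.p6, 250 bases before to 50 bases after the start of the gene, 300 bases in all) were printed for 3 annexins that moved in different ways. Anxa8 was the annexin with the widest range of signal (chr14:34085729-34086028, plus strand), Anxa1 was lower in culture than in tissue (chr19:20390622-20390921, minus strand), and Anxa5 was higher in culture (chr3:36475838-36476137, minus strand). Capitals mark the motif matches.
Anxa8: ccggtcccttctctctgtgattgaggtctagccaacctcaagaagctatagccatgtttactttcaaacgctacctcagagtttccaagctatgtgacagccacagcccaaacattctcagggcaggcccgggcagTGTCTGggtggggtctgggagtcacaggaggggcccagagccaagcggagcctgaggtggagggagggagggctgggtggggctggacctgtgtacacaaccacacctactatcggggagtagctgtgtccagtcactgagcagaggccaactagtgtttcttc
Anxa1: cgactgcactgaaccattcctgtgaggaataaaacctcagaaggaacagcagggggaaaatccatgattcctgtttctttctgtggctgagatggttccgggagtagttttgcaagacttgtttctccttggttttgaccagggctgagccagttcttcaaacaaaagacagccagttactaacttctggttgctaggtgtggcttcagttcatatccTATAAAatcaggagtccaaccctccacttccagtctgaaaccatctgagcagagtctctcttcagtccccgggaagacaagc
Anxa5: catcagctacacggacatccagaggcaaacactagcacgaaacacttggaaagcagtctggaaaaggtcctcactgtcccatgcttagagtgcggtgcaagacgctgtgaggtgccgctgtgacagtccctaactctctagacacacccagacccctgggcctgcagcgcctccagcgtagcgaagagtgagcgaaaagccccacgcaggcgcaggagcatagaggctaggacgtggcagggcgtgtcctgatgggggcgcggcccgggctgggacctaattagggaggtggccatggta
The motifs searched on both strands were the TATA box as TATAAA, the CCAAT box, the GC box as GGGCGG, the AP-1 site as TGANTCA and CAGACA, the core of the Smad-binding CAGA box of TGF-beta signalling. The Anxa8 window held CAGACA once, read as TGTCTG on the printed strand at 114 bases before the start, and CAGACA stood in 21.0% of 27025 promoters of the same length. The Anxa1 window held TATAAA at 32 bases before the start, a motif found in 14.2% of promoters. The Anxa5 window held none of the 5 motifs, of which CCAAT stood in 37.9% of promoters, GGGCGG in 35.9% and TGANTCA in 7.93%. A match describes the letters of the window and is not a measured binding site. GC content was 57.3% in the Anxa8 window, 47.3% in that of Anxa1 and 60.3% in that of Anxa5, against a median of 52.7% over all promoters. The table held 7 of the 9 annexins, without Anxa3 and Anxa6. Among the 9 genes, Anxa7, Anxa8 and Anxa11 lie on chromosome 14 and the other 6 on 6 further chromosomes.

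Signals are intensities in arbitrary units, and a signal under 137.7 is called within background here, since 95% of the values of 19 bacterial and yeast control probe sets over the 14 arrays lay below it. A difference is log2 of (signal + 16), first-named group minus the second, ± its standard error (SE) from limma. A probe set was called when its adjusted p was below 0.05 over 10370 tested probe sets. Median signal per array ranged from 102 to 135.6, and correlations of log2 signal within groups ranged from 0.910 to 0.987. Adult replicate 1 stood apart in the ratio of 3' to 5' Gapdh signal, 2.12, against at most 1.04 on any other array. Without that array the same 5 annexins were called between keratocyte cultures and adult stroma.

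The tissue arrays carried RNA of other eye tissues. The summed signal of 16 epithelial genes was 840 to 916 in myofibroblast cultures, 758 to 954 in fibroblast cultures and 1167 to 1331 in keratocyte cultures, against 27478 to 29690 in adult stroma and 25469 to 25789 in P10 stroma. Krt12, the keratin specific to corneal epithelium, stood at 6773 to 7725 in adult stroma. Col17a1, Epcam and Itgb4 were at the lowest listed value on every culture array. By their means 15 of the 16 were within background in myofibroblast, 14 in fibroblast and 12 in keratocyte cultures. In keratocyte cultures Krt12 (238), Pax6 (242), Perp (187) and Sprr1a (153) were above it. The summed signal of 6 retina genes was 137 to 187 in myofibroblast, 126 to 164 in fibroblast and 147 to 158 in keratocyte cultures, against 829 to 3713 in adult stroma and 1917 to 3139 in P10 stroma, and all 6 were lower in keratocyte cultures than in adult stroma. Of 7 lens genes, each by its brightest probe set, 2 were lower there (Cryaa and Cryba1) and 1 higher (Crygd). A second Crygd probe set ran the other way, averaging 16.6 in keratocyte cultures and 2016 in adult stroma. A second Crybb2 probe set averaged 33.1 and 1967 and was called lower, while a second Cryab set was within background in every group. Of 4 tested pigment cell genes all 4 were called higher in keratocyte cultures than in adult stroma, and of 4 tested vessel genes 1 was (Cdh5). The summed pigment signal was 1862 to 2221 in keratocyte, 375 to 605 in fibroblast and 429 to 557 in myofibroblast cultures. Adult stroma gave 612 to 750 and P10 stroma 1631 to 4954. The part of these tissues and cells in any difference between groups was not tested. Keratocan (Kera), a proteoglycan of keratocytes, gave 4.24 to 13.1 in myofibroblast, 1.504 to 84.3 in fibroblast and 15.7 to 315 in keratocyte cultures. Adult stroma gave 214 to 429. Kera was not called between keratocyte cultures and adult stroma, and its list of 8 genes was mixed there. In keratocyte cultures 4 of the 8 were called higher (Ptgds, Cd34, Ogn and Dcn) and 1 lower (Tkt). The Cd34 means were within background in both groups. Acta2, the actin isoform of contractile cells, was 2932 to 3061 in myofibroblast, 638 to 2954 in fibroblast and 3066 to 3347 in keratocyte cultures. Every keratocyte array lay above every array of the other cultures, the nearest myofibroblast array only just. Adult stroma gave 39.6 to 65.0 and P10 stroma 326 to 624. Of the 5 contractile genes listed, 4 were called higher in keratocyte cultures than in adult stroma (Acta2, Actg2, Tagln and Myl9) and 1 lower (Cnn1). Limma called none of the 5 between myofibroblast cultures and either other kind of culture. In such bulk samples fewer cells of a type and less RNA per cell cannot be told apart.

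By their brightest probe sets, Anxa3, Anxa5 and Anxa6 were higher on all 9 culture arrays than on any of the 5 tissue arrays. Anxa1, Anxa7 and Anxa8 were lower on all 9, while Anxa2 and Anxa4 overlapped. Over all 10370 tested probe sets 17.4% did not overlap between culture and tissue, 8.98% higher and 8.4% lower in culture, and nothing is read from the members' count since these signals chose them. Between keratocyte cultures and adult stroma 5 of the 8 annexins were called, with Anxa3, Anxa5 and Anxa6 higher and Anxa7 and Anxa8 lower. Over all probe sets 31.1% were called in that comparison, 21.8% higher and 9.25% lower, and the members' count is likewise a description. The median difference was -0.11 over the 8 annexins and 0.12 over all probe sets.

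**Figure D1:**
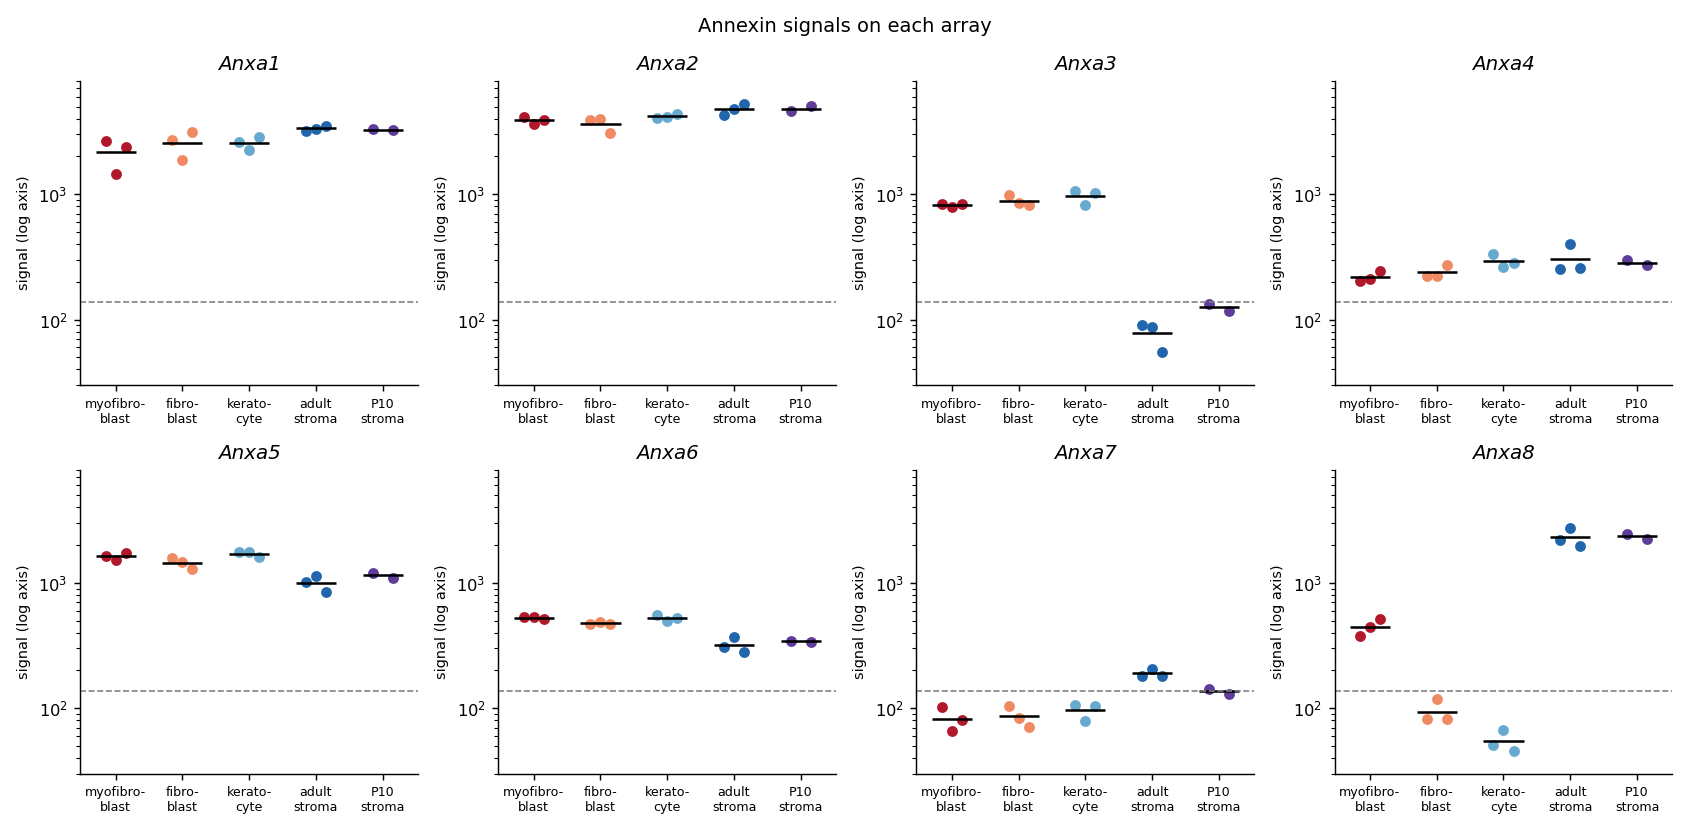
Signal on each array (log axis, arbitrary units) for the 8 annexins with a probe set of their own, in myofibroblast, fibroblast and keratocyte cultures and in adult and P10 stroma. Dots are arrays, bars are group means, and the dashed line is the background signal of 137.7. Anxa3 lies above the line in the cultures alone, and Anxa8 lies above it in tissue and in myofibroblast cultures.

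Anxa8 (chr14:34085979-34100571), which is associated with late endosomes and actin and is known from stratified epithelia, had the widest span. Its signal was 374, 443 and 513 in myofibroblast cultures, 82.3, 117 and 81.7 in fibroblast cultures, 51.1, 67.2 and 45.3 in keratocyte cultures, 2219, 2759 and 1973 in adult stroma and 2474 and 2256 in P10 stroma. All fibroblast and keratocyte arrays lay within background, the tissue arrays were highest and overlapped between ages, and the 3 myofibroblast arrays stood between them with no overlap on either side. Keratocyte cultures averaged 54.6 ± 11.3 and adult stroma 2317 ± 402 (SD, n = 3 each), at least 16.7-fold lower in culture. Since a group within background has only an upper bound, each such fold is taken against the background signal.

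Among the cultures, Anxa8 was above background only in those given TGF-beta 1. Myofibroblast cultures averaged 443 ± 69.5, against 93.8 ± 20.5 in fibroblast cultures (SD, n = 3 each), at least 3.19-fold higher. Against keratocyte cultures the bound was also 3.19-fold. Joined by replicate number, the myofibroblast array was 4.54, 3.77 and 6.27 times the fibroblast array. The myofibroblast mean was 19.1% of that in adult stroma, the fibroblast mean 4.05% and the keratocyte mean 2.35%. Anxa8 was the 1 annexin called between myofibroblast and fibroblast cultures, where 1.07% of all probe sets were called, 0.289% higher and 0.781% lower. It was also the 1 annexin called between myofibroblast and keratocyte cultures, where 5.98% were called, 1.1% higher and 4.88% lower. Nothing is read from these calls beyond a description, since these signals chose the members. The epithelial list moved with Anxa8 between tissue and culture, since 14 of its 15 tested genes were lower in keratocyte cultures than in adult stroma, and its part in the tissue level of Anxa8 was not tested. Between myofibroblast and fibroblast cultures none of those 15 genes was called by limma, 4 had an unadjusted p below 0.05, and their summed signals overlapped. On all 3 myofibroblast arrays Elf3 and Krt6a of that list were higher than on any fibroblast array. They gave 96.4 to 137 and 107 to 135, against 48.3 to 76.3 and 73.2 to 84.2, all within background. A second Krt6a probe set was at the lowest listed value on every culture array. Krt5, too dim to be tested, went the other way, at 12.4 to 28.2 on myofibroblast and 31.1 to 46.7 on fibroblast arrays. Perp, Klf5, Pax6, Itga6 and Cdh1 were lower by their means and Krt12, Dsp and Sprr1a higher, all with overlapping arrays. Between myofibroblast and keratocyte cultures 4 of the 15 were called, Elf3 higher and Pax6, Itga6 and Perp lower.

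**Figure D2:**
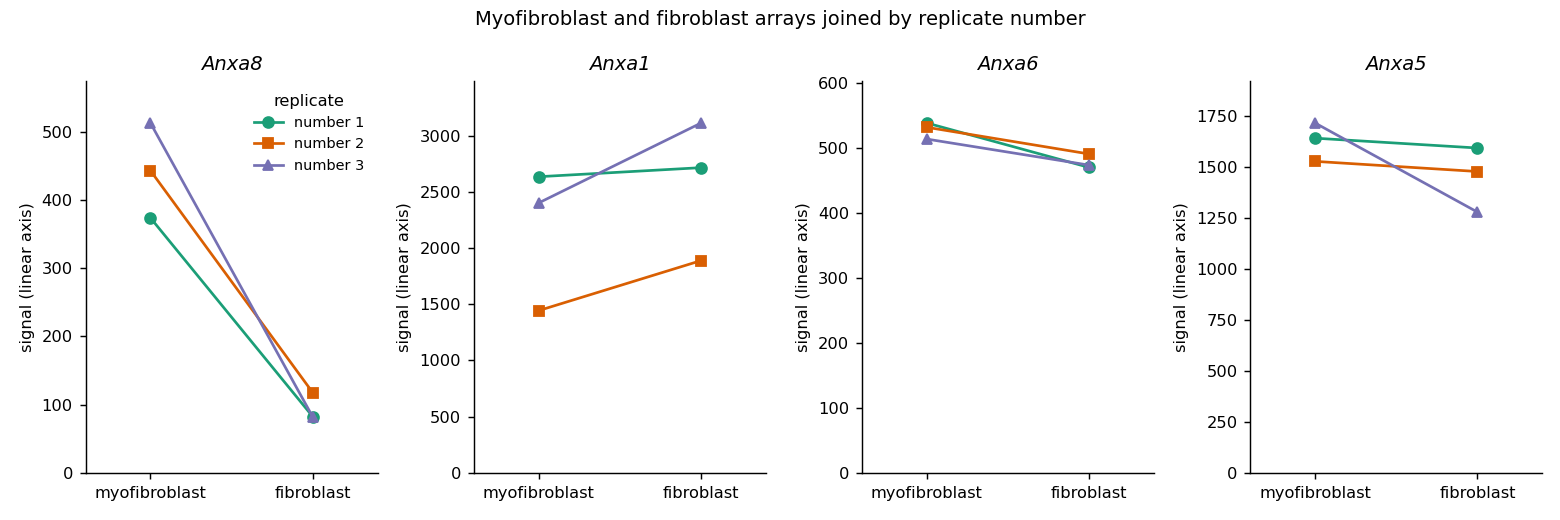
Signal (linear axis, arbitrary units) of Anxa8, Anxa1, Anxa6 and Anxa5 on the 3 myofibroblast and 3 fibroblast arrays, with lines joining arrays of the same replicate number. Anxa8 is higher on all 3 myofibroblast arrays, Anxa1 is lower within each of the 3 numbers, and replicate 2 is lowest for Anxa1 in both groups.

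Among the annexins that bind phosphatidylserine at damaged membrane, Anxa5 and Anxa6 were higher in culture. Anxa5 (chr3:36448923-36475887), which forms lattices on exposed phosphatidylserine and is the common probe for dying cells, gave 1643, 1529 and 1717 in myofibroblast cultures, 1594, 1479 and 1280 in fibroblast cultures, 1751, 1751 and 1608 in keratocyte cultures, 1022, 1133 and 852 in adult stroma and 1208 and 1093 in P10 stroma. The lowest culture array exceeded the highest tissue array. Keratocyte cultures averaged 1703 ± 82.5 and adult stroma 1002 ± 142 (SD, n = 3 each), a ratio of 1.70 and a difference of 0.76 ± 0.14. The 3 fibroblast arrays lay below the 3 keratocyte arrays, by a difference of -0.23 ± 0.14.

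Anxa6 (chr11:54978953-55033471), the member with a duplicated core that ties membrane to cortical actin and cholesterol, followed a similar course. It gave 538, 531 and 513 in myofibroblast cultures, 469, 490.2 and 473 in fibroblast cultures, 553, 498 and 523 in keratocyte cultures, 308, 370.3 and 279 in adult stroma and 346 and 338 in P10 stroma. Culture and tissue did not overlap, and keratocyte cultures were 1.65 times adult stroma by their means, a difference of 0.70 ± 0.14. All myofibroblast arrays were above all fibroblast arrays, by 1.08 to 1.15 times within the 3 replicate numbers. That difference, 0.14 ± 0.14, was no larger than its SE.

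Anxa4 (chr6:86736840-86793634), an annexin abundant under the apical membrane of epithelia, did not separate culture from tissue. Its signals were 201, 211 and 243 in myofibroblast cultures, 221, 222 and 274 in fibroblast cultures, 336, 261 and 283 in keratocyte cultures, 255, 400.0 and 257 in adult stroma and 296 and 272 in P10 stroma. Keratocyte cultures and adult stroma differed by -0.03 ± 0.19, and 1 adult array was well above the other 2. All 3 myofibroblast arrays were below all 3 keratocyte arrays, by -0.40 ± 0.19, and the gene was not called.

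Anxa1 (chr19:20373434-20390671), the glucocorticoid-induced annexin that restrains phospholipase A2 and leukocyte entry, was lower in culture. Its brightest probe set gave 2634, 1444 and 2401 in myofibroblast cultures, 2715, 1888 and 3112 in fibroblast cultures, 2593, 2244 and 2849 in keratocyte cultures, 3206, 3342 and 3515 in adult stroma and 3295 and 3248 in P10 stroma. The tissue arrays lay close together, while replicate 2 was lowest in each of the 3 kinds of culture. Replicate 2 was also the dimmest array of each kind by its median signal, at 102.0 in myofibroblast, 107.1 in fibroblast and 117.7 in keratocyte cultures. Keratocyte cultures averaged 2562 ± 304 and adult stroma 3354 ± 155 (SD, n = 3 each), a difference of -0.39 ± 0.21, and this probe set was not called.

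The other Anxa1 probe sets ran the same way. One averaged 2027 ± 221 in keratocyte cultures and 3030.1 ± 242 in adult stroma (SD, n = 3 each), a difference of -0.58, and it was called. The third averaged 826 ± 162 in keratocyte cultures and 1076 ± 176 in adult stroma and was not called. In all 3 probe sets every keratocyte array was below every adult array, and replicate 2 was the lowest array in myofibroblast, fibroblast and keratocyte cultures alike. The names of the brighter pair carry the suffix that marks probes matching related sequences, so signal from related transcripts cannot be told apart from that of Anxa1. Within replicate numbers the myofibroblast array was 0.764 to 0.970 times the fibroblast array in the brightest set.

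Anxa2 (chr9:69453683-69491792) pairs with S100a10 into a heterotetramer that binds plasminogen and its activators at the cell surface. It gave 4105, 3629.7 and 3925 in myofibroblast cultures, 3932, 3969 and 3069 in fibroblast cultures, 4055, 4122 and 4331 in keratocyte cultures, 4299, 4784 and 5277 in adult stroma and 4578 and 5033 in P10 stroma. The means of the 5 groups spanned only 0.40 on the log2 scale. Keratocyte cultures and adult stroma overlapped, 4169 ± 144 and 4787 ± 489 (SD, n = 3 each), and differed by -0.19 ± 0.12. The 3 fibroblast arrays were below the 3 keratocyte arrays, by -0.20 ± 0.12.

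The annexins of granule fusion went opposite ways. Anxa3 (chr5:96793385-96845968), associated with granules in human neutrophils, gave 839, 793 and 841 in myofibroblast cultures, 981, 855 and 825 in fibroblast cultures, 1059.7, 821 and 1029 in keratocyte cultures, 89.7, 87.6 and 55.5 in adult stroma and 132 and 118 in P10 stroma. Every tissue array was within background and every culture array well above it. Keratocyte cultures averaged 969.9 ± 129.6, against 77.6 ± 19.2 in adult stroma (SD, n = 3 each), at least 7.00-fold higher. The 3 kinds of culture overlapped, and fibroblast minus keratocyte and myofibroblast minus fibroblast came to -0.12 ± 0.18 and -0.10 ± 0.18. A macrophage list was also higher in keratocyte cultures than in adult stroma, with 8 of its 12 genes called higher. Its summed signal was 1343 to 2204 in myofibroblast, 1573 to 3093 in fibroblast and 3628 to 4669 in keratocyte cultures. Adult stroma gave 1051 to 1425 and P10 stroma 1593 to 1659, which is inside the myofibroblast range. In myofibroblast cultures, as in adult and in P10 stroma, 8 of the 12 genes were within background by their means. The Anxa3 means of the 3 kinds of culture stood in the same order as these sums, with overlapping arrays, and the part of macrophages in its level was not tested.

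Anxa7 (chr14:20455261-20480133), or synexin, which fuses secretory granules in the adrenal gland, gave 102, 66.0 and 80.0 in myofibroblast cultures, 105, 83.4 and 70.8 in fibroblast cultures, 107, 78.7 and 105 in keratocyte cultures, 181, 205 and 182 in adult stroma and 142 and 131 in P10 stroma. It was above background in adult stroma, at background in P10 stroma and within background in all cultures. Adult stroma averaged 189 ± 13.8 (SD, n = 3), and keratocyte cultures were at least 1.37-fold lower. Adult stroma was also at least 1.35-fold above P10 stroma, with no overlap, and the gene was not called there. A second Anxa7 probe set stayed within background throughout, at 1.00 to 15.9 in the cultures and 24.6 to 51.9 in tissue, and was too dim to be tested.

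Anxa11 (chr14:25842127-25886804), which binds Pdcd6 and S100a6 and tethers RNA granules to lysosomes, could not be read alone. The probe set it shares with Gm2260 and Gm2274 gave 196, 83.5 and 190.3 in myofibroblast cultures, 368, 99.9 and 387 in fibroblast cultures, 415, 244 and 347 in keratocyte cultures, 679, 672 and 373 in adult stroma and 729 and 547 in P10 stroma. Replicate 2 was lowest in all 3 kinds of culture. These values are not assigned to Anxa11 and enter no count.

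**Figure D3:**
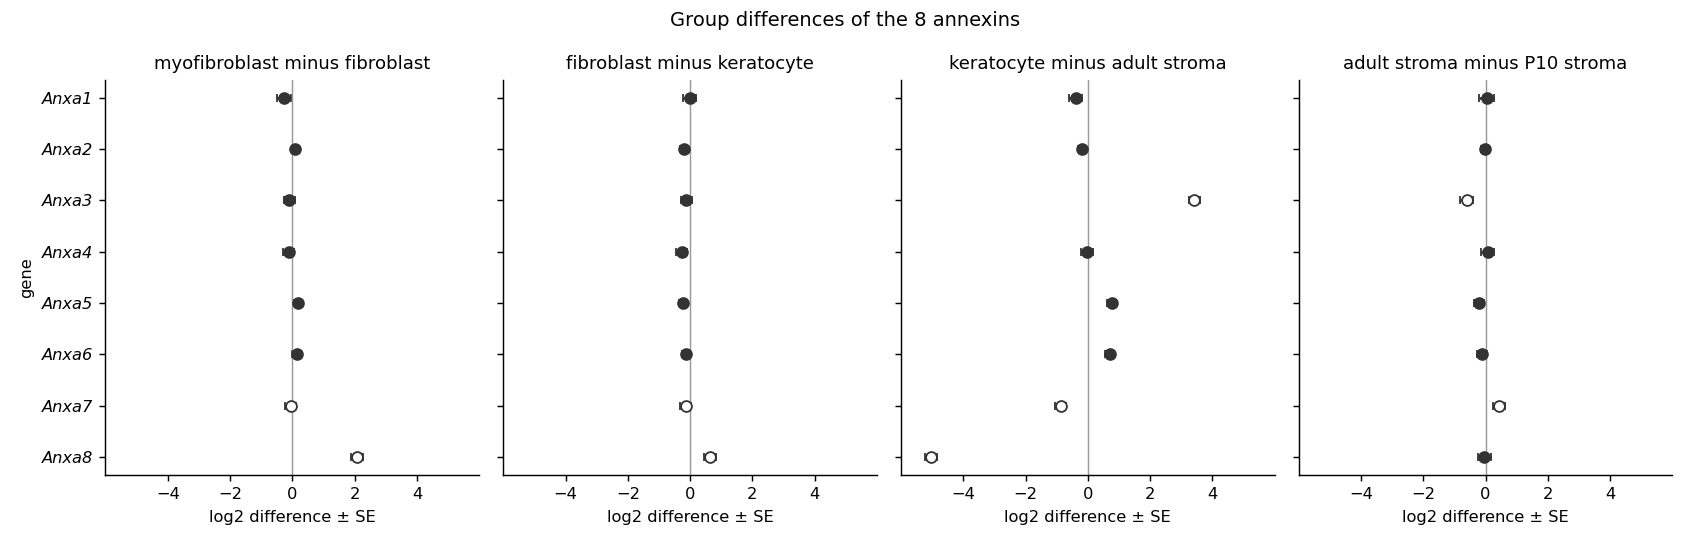
Log2 difference ± SE (x axis) for the 8 annexins (rows) in 4 comparisons from the fit over all 14 arrays. Open circles mark differences in which at least 1 group lay within background, so that their size is not a measured fold. The largest shifts are Anxa3 and Anxa8 between keratocyte cultures and adult stroma and Anxa8 between myofibroblast and fibroblast cultures.

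No annexin was called between adult and P10 stroma or between fibroblast and keratocyte cultures. The fibroblast and keratocyte cultures differed in the kind as well as the amount of serum. The calls here are descriptions too, since these signals chose the members. Between adult and P10 stroma limma called none of the 8 annexins, 1 had an unadjusted p below 0.05, and 3.71% of all probe sets were called (0.453% higher, 3.26% lower). The median difference was -0.03 over the annexins and -0.12 over all probe sets. Between fibroblast and keratocyte cultures limma also called none of the 8, 1 had an unadjusted p below 0.05, and 1.37% of probe sets were called (0.193% higher, 1.18% lower). Medians were -0.14 for the annexins and -0.09 for all. With 2 or 3 arrays a group, differences of the size seen here, at most 0.63 on the log2 scale in either comparison, were not separated from the spread by this test.

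Partners and membrane repair genes, which the choice of annexins did not use, were tested in the same fit. Their lists were also drawn up with earlier results of these data known, which the p-values do not take into account. The lists held 34 genes, of which 25 were tested, 16 partners and 9 repair genes. Between keratocyte cultures and adult stroma 10 of the 25 were called, beside 31.1% of all probe sets (21.8% higher, 9.25% lower). Of these, 6 rose (S100a4, Cav1, Capn2, Plaur, Plau and S100a1) and 4 fell (Capn1, S100a10, Capns1 and Ahnak), and the median difference was 0.10 against 0.12 over all probe sets. The Plaur means, 126 in keratocyte cultures and 31.7 in adult stroma, were both within background.

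S100a10, the tail partner of Anxa2, gave 612, 445 and 632 in myofibroblast cultures, 849, 545 and 603 in fibroblast cultures, 1095, 828 and 1086 in keratocyte cultures, 3063, 2964 and 2732 in adult stroma and 2159 and 1831 in P10 stroma. It was lower on every culture array than on any tissue array, while Anxa2 overlapped. Keratocyte cultures differed from adult stroma by -1.54 ± 0.19 (limma adjusted p = 2.56e-05, 3 of 3 arrays lower). Myofibroblast cultures were lower again than keratocyte cultures, by -0.82 ± 0.19 (limma adjusted p = 0.0191), with no overlap of arrays. That call was lost without keratocyte replicate 1 (limma adjusted p = 0.1003), keratocyte replicate 3 (0.102) or myofibroblast replicate 2 (0.0912). It was also lost with only the 2 groups compared (0.0522) and by the median over probe sets, where the difference was -0.40 (limma adjusted p = 0.194), and over 23 alternatives the p ranged from 0.00459 to 0.194. A second, dim S100a10 probe set lay within background on all arrays. S100a6, which binds Anxa2, Anxa6 and Anxa11, was called in no comparison by limma, with means of 5715 ± 475 in myofibroblast, 6827 ± 377 in fibroblast and 6098 ± 185 in keratocyte cultures, 6499 ± 399 in adult stroma (SD, n = 3 each) and 6106 ± 239.9 in P10 stroma (SD, n = 2). S100a11 had no probe set of its own.

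The steepest partner change was in S100a4, a partner of Anxa2 known from motile fibroblasts. Its signal was 1838, 1590.4 and 3359 in myofibroblast cultures, 3405, 2858 and 4226 in fibroblast cultures, 2259, 2219 and 2419 in keratocyte cultures, 225, 299 and 225 in adult stroma and 232 and 254 in P10 stroma. It rose by 3.13 ± 0.24 in keratocyte cultures over adult stroma (limma adjusted p = 1.76e-07), with every culture array above every tissue array. Caveolin-1 (Cav1), a coat protein of caveolae, gave 1307, 1594 and 1690.2 in keratocyte cultures, against 154, 207 and 140.3 in adult stroma, a rise of 3.09 ± 0.27 (limma adjusted p = 8.24e-07). A second Cav1 probe set lay within background and was not called.

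The calpains, calcium-dependent proteases that cleave annexin tails and cytoskeleton during repair, went opposite ways. Capn1 gave 187, 237 and 214 in keratocyte cultures, against 723, 1106 and 671 in adult stroma, and fell by 1.86 ± 0.22 on the log2 scale (limma adjusted p = 1.72e-05). Capn2 gave 453, 411 and 467 in keratocyte cultures, against 175, 27.5 and 123 in adult stroma, whose mean was within background, so it was at least 2.97-fold higher (limma adjusted p = 0.00118). Capns1, the small subunit they share, fell by 0.87 ± 0.20 (limma adjusted p = 0.00405). Ahnak, a giant scaffold that binds the Anxa2 and S100a10 complex, fell by 0.72 ± 0.23 (limma adjusted p = 0.0264). The Ahnak call was lost without adult replicate 1 (limma adjusted p = 0.0843) or keratocyte replicate 2 (0.1003), in a range of 0.000429 to 0.1003 over 23 alternatives.

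Plau, the urokinase that activates plasminogen, gave 115, 212 and 77.6 in myofibroblast cultures, 200.1, 752 and 340.1 in fibroblast cultures, 599.8, 330.4 and 432 in keratocyte cultures and 147, 162 and 116 in adult stroma. It rose by 1.55 ± 0.41 in keratocyte cultures over adult stroma (limma adjusted p = 0.0100). In myofibroblast cultures it was at least 2.77-fold lower than in keratocyte cultures (limma adjusted p = 0.0238). The second call was lost without keratocyte replicate 1 (limma adjusted p = 0.124), keratocyte replicate 3 (0.0834), myofibroblast replicate 1 (0.0627) or myofibroblast replicate 3 (0.116), under quantile normalization (0.0649) or centring on the array median (0.0551), and over 23 alternatives its p ranged from 0.00547 to 0.124. S100a1 rose at least 1.30-fold (limma adjusted p = 0.0322) and its call was lost without adult replicate 1 (0.103), adult replicate 3 (0.111), keratocyte replicate 1 (0.0824) or keratocyte replicate 3 (0.115). It was also lost under quantile normalization (limma adjusted p = 0.0581), centring on the array median (0.0687) and the median over probe sets, where the difference was 0.35 (0.307), within a range of 0.00967 to 0.307 over 23 alternatives.

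Pla2g4a, the cytosolic phospholipase A2 that Anxa1 can inhibit, was the 1 partner that rose in myofibroblast over keratocyte cultures. It gave 1078, 926 and 1275 in myofibroblast cultures, 778, 605 and 855 in fibroblast cultures and 495, 275 and 458 in keratocyte cultures, with no overlap between any pair of the 3 groups. Myofibroblast minus keratocyte was 1.41 ± 0.28 (limma adjusted p = 0.00729), while the step between myofibroblast and fibroblast cultures, 0.54 ± 0.28, was not called (limma adjusted p = 0.708). Within the 3 replicate numbers the myofibroblast array was 1.39, 1.53 and 1.49 times the fibroblast array. With the replicate number as a block the step was not called over all arrays (limma adjusted p = 0.474) and was called with only these 2 groups fitted (limma adjusted p = 0.0457). In that comparison of myofibroblast with keratocyte cultures S100a10 and Plau fell and the other 22 were not called, so 3 of 25 were called beside 5.98% of all probe sets (1.1% higher, 4.88% lower), and the median was -0.22 against -0.13 over all probe sets.

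**Figure D4:**
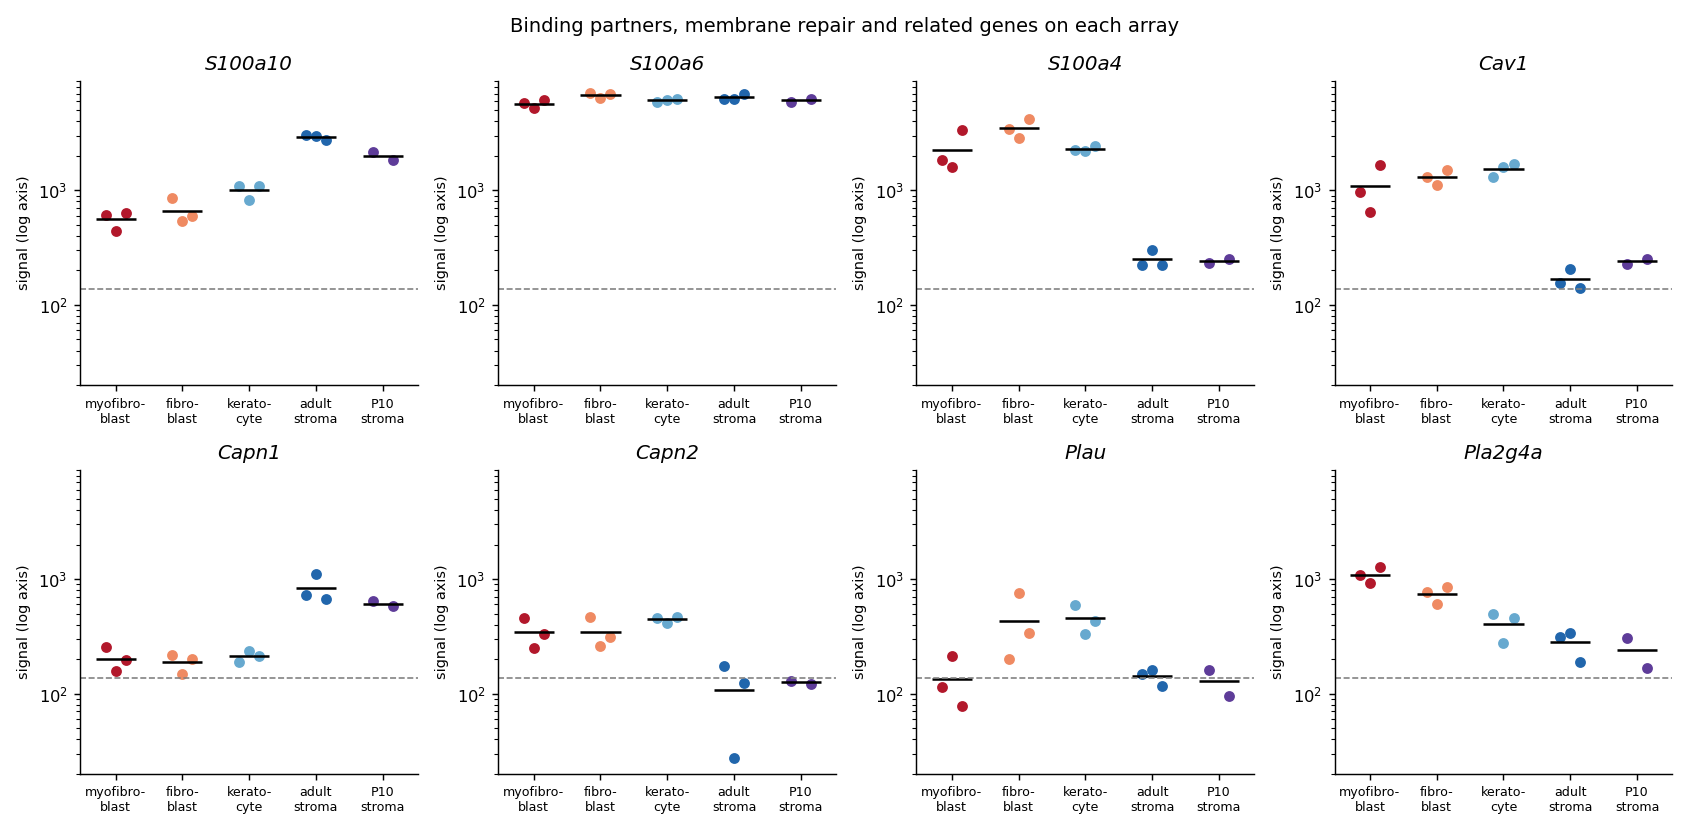
Signal on each array (log axis, arbitrary units) of 8 genes that bind annexins or act with them in membrane repair, by group. Dots are arrays, bars are group means and the dashed line is the background signal of 137.7. S100a4 and Cav1 are higher and S100a10 and Capn1 lower in all cultures than in tissue, Pla2g4a is highest in myofibroblast cultures, and S100a6 lies between 5223 and 7146 throughout.

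Between adult and P10 stroma 1 of the 25 partners and repair genes fell, beside 3.71% of all probe sets called, a share near that of the list. It was Egfr, whose kinase phosphorylates Anxa1. Its brightest probe set gave 129, 152 and 120.0 in adult stroma, against 249 and 230.2 in P10 stroma, at least 1.68-fold lower in adult stroma (limma adjusted p = 0.0269). That call was lost without adult replicate 1 (limma adjusted p = 0.0847), P10 replicate 1 (0.242) or P10 replicate 2 (0.160), under quantile normalization (0.135), centring on the array median (0.191) or with only the 2 groups compared (0.127), and ranged from 0.0118 to 0.242 over 23 alternatives. Between fibroblast and keratocyte cultures limma called none of the 25, with 3 at an unadjusted p below 0.05, and between myofibroblast and fibroblast cultures none, with 4. In these comparisons 1.37% and 1.07% of all probe sets were called.

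The genes whose course over the 5 groups was nearest to each annexin were found by the root mean square difference of centred group means on the log2 scale, over 7428 other genes and 5 groups. For Anxa8 the nearest were Cdo1, cysteine dioxygenase, at 0.32, and Gsto1, an omega-class glutathione transferase, at 0.58, where Anxa8 itself spanned 5.09. Cdo1 averaged 353 ± 196 in myofibroblast, 65.9 ± 30.9 in fibroblast and 55.5 ± 12.3 in keratocyte cultures, 1206 ± 300.4 in adult stroma (SD, n = 3 each) and 1509 ± 175 in P10 stroma (SD, n = 2). Gsto1 averaged 916, 442 and 393 in myofibroblast, fibroblast and keratocyte cultures, 6114 in adult stroma and 5047 in P10 stroma. Both therefore stood high in tissue, low in fibroblast and keratocyte cultures and between them in myofibroblast cultures.

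For Anxa3, which spanned 3.41, the nearest were Msn (moesin, which links actin to membrane) at 0.13 and Vcam1 (a leukocyte adhesion receptor) at 0.15. Msn averaged 1405 in myofibroblast, 1229 in fibroblast and 1528 in keratocyte cultures, 106 in adult stroma and 185 in P10 stroma. For Anxa7 they were Dstn, an actin-severing protein, at 0.03 and Nos2, which was within background, at 0.04. For Anxa6 they were Vim at 0.02 and Galnt2 at 0.03. The Vim probe set was near background in tissue, at 140.9 in adult and 143.8 in P10 stroma. The other annexins had Myl7 and Slc7a6 (Anxa5), Pdcd7 and Plg (Anxa1), Strbp and Zfp59 (Anxa2) and Nap1l4 and Mbd2 (Anxa4), all within 0.04. Those annexins spanned at most 0.76, so that many genes lie near them, and among these neighbours Pdcd7, Plg, Strbp, Zfp59, Myl7 and Slc7a6 were within background by their group means.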

How the data were processed

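Total RNA (5 ug) was hybridised to 14 mouse arrays, and per the labels the authors scaled each array to a target intensity of 150 with Microarray Suite 5.0. The deposited table holds these linear intensity values, 1 per probe set, and the trimmed means found in it were 164 to 225. Symbols came from the platform annotation: 10833 probe sets had 1 symbol, 396 several (not named) and 1193 none. The 66 control probe sets were removed. Probe sets averaging 50 or more in at least 1 group (10370) were tested on log2(signal + 16) with limma 3.58.1 (R 4.3.3), 1 mean per group over all 14 arrays with 9 residual degrees of freedom and a trended variance, and Benjamini-Hochberg adjustment. The code was tested on simulated data. The number of arrays limits the precision.

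The annexins and all gene lists were chosen with earlier results of these data known. Named were every annexin, the 4 called partners per comparison with the largest difference whose group means were not both within background, S100a10, S100a11 and S100a6, and the 2 nearest genes per annexin. Capns1, Ahnak, Plau, S100a1 and Plaur, named to complete a count, and the marker genes were added after their values were seen. Myofibroblast and fibroblast arrays of the same replicate number deviated together (correlations 0.53 to 0.68), so these numbers were taken to pair the samples. The labels do not say whether such arrays share a cell isolation. Replicate 2 had the lowest median signal in each kind of culture, and the part of array brightness in these correlations was not tested. No other groups were taken as paired, though replicate 2 of fibroblast and keratocyte cultures also correlated at 0.57. Scan dates and batches were not given in the sources used here. Alternatives covered the constant, filter, scaling, probe set choice, arrays fitted, replicate block and each array left out.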

Additional observations from a re-analysis of the deposited data

How the results depend on the processing

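The annexins called were the same in all alternatives (23 per comparison, 24 for myofibroblast minus fibroblast) except keratocyte minus adult stroma under quantile normalization and centring on the array median, where Anxa1 and Anxa2 were called lower too. Of 928 alternative values of 40 annexin differences, 903 stayed within 1 SD and 25 moved, and none that was called changed sign. Differences near 0 had no settled sign, and the annexin calls remain descriptions since these signals chose the members. Between adult and P10 stroma, Anxa2, Anxa6 and Anxa8 became higher in adult stroma when centred.

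Counts over all probe sets moved more. For adult minus P10 stroma, 385 became 225 with only the 2 groups compared, 628 with a replicate block and 117 to 495 with 1 array left out (220 without adult replicate 1, 117 without P10 replicate 1, 134 without P10 replicate 2). For fibroblast minus keratocyte, 142 became 83 with a constant of 1, 46 with only the 2 groups, 214 with the block and 20 to 171 with 1 array left out (59 without fibroblast replicate 3, 36 without keratocyte replicate 1, 20 without keratocyte replicate 3). For myofibroblast minus fibroblast the numbers were taken to pair the samples. There 111 became 173 with the block and 16 with only the 2 groups. It became 210 with the block and only the 2 groups (chosen after seeing the data). With 1 array left out the count was 61 to 151 (70 without keratocyte replicate 3, 61 without myofibroblast replicate 3). For myofibroblast minus keratocyte, 620 became 1007 with the block and 298 to 694 with 1 array left out (298 without keratocyte replicate 1, 304 without keratocyte replicate 3, 411 without myofibroblast replicate 3). For keratocyte minus adult stroma, 3221 ranged from 2380 to 3359 with 1 array left out. The causes were not tested. The block changed no annexin call.

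Scaling moved the split of calls. Higher and lower probe sets for keratocyte minus adult stroma were 2262 and 959, then 1892 and 1647 under quantile normalization and 1797 and 1600 when centred. For adult minus P10 stroma they were 47 and 338, then 107 and 316, then 75 and 236. For fibroblast minus keratocyte they were 20 and 122, then 39 and 111, then 36 and 105. For myofibroblast minus fibroblast they were 30 and 81, then 63 and 95, then 53 and 82. For myofibroblast minus keratocyte they were 114 and 506, then 273 and 414, then 262 and 364.

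Partner calls for adult minus P10 stroma, 1, became 0 when centred or with only the 2 groups, 2 by the median over probe sets, and 0 to 2 with 1 array left out. For myofibroblast minus fibroblast, 0 became 1 (Pla2g4a) with the block and only the 2 groups, and 0 to 1 with 1 array left out. For myofibroblast minus keratocyte, 3 ranged from 1 to 3. For keratocyte minus adult stroma, 10 ranged from 9 to 11 over all alternatives. Where a P10 array was left out, the lone array was assumed to vary like the other groups. Signals within background limit Anxa3, Anxa7 and Anxa8 to bounds.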

Other observations

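Anxa10, an annexin known from stomach and outside the set described, had 1 probe set, which gave 2.94 to 25.2 over all 14 arrays, within background in every group.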
